A study of Mus musculus with 6 samples.

Results

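The 10 MYC network genes are the mouse genes of the MYC, MAX and MXD family: Myc, Mycn, Mycl, Max, Mxd1, Mxi1, Mxd3, Mxd4, Mnt and Mga. They were taken by symbol from a table of 31771 Ensembl genes, and each of the 10 symbols matched 1 identifier. RNA from frozen pieces of spleen was sequenced from 3 mutant mice and 3 wild-type (WT) mice, all labelled as strain C57BL/6. The mutants carried VEC-Cre (a recombinase driven by the promoter of VE-cadherin, an adhesion molecule of endothelium), an SB transposase and the onc2 transposon, and the WT mice were labelled wild type. Sleeping Beauty (SB) transposase cuts a transposon out of the genome and inserts it elsewhere, so each mutant animal can carry its own insertions. This Cre is also known to recombine in blood lineages, which arise from embryonic endothelium. No group with Cre or transposase alone was compared, and no label states age, sex or litter, though the titles of mutants 1 and 2 begin with F and that of mutant 3 with M. The stated purpose of the profiling was to assess which cells made up the spleens.

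MYC proteins bind DNA only as dimers with MAX, mostly at the E-box sequence CACGTG, where they raise transcription of genes for ribosome production, metabolism and cell division. The MXD proteins, MNT and MGA compete for the same partner. MXD proteins and MNT recruit SIN3 and histone deacetylases and repress many of the same genes, and MGA brings MAX into a Polycomb complex. In blood, MYC is known for driving the expansion of progenitors and activated lymphocytes. The MXD genes other than Mxd3, which is known from dividing cells, are known for their expression as cells stop dividing and mature.

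The promoter windows of 4 members are shown because these genes carry the contrasts described below: Mxi1 passed the test, Mycn was high in 1 mutant, and Mnt and Mxd4 were lower in all 3 mutants and hold the E-box. Mycl and Max were also lower in all 3 mutants, and their windows do not hold it. None of these lower genes passed the test by edgeR. Each sequence is the 250 bases before a transcription start, 5′ to 3′ on the gene's strand, from RefSeq on GRCm38.p6, with CACGTG in capitals. Mxi1 has 3 windows in that table, of which the first is printed.
Mxi1, chr19:53310256-53310505, plus strand: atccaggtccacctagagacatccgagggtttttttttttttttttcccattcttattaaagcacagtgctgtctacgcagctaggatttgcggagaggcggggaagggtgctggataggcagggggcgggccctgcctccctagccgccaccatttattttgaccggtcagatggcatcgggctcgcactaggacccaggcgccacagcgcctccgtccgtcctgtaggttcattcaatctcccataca
Mycn, chr12:12941837-12942086, minus strand: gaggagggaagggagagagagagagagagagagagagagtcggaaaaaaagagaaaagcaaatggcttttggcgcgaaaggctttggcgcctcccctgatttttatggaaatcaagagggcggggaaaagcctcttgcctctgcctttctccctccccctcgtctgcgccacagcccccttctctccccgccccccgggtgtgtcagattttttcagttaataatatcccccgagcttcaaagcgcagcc
Mnt, chr11:74830674-74830923, plus strand: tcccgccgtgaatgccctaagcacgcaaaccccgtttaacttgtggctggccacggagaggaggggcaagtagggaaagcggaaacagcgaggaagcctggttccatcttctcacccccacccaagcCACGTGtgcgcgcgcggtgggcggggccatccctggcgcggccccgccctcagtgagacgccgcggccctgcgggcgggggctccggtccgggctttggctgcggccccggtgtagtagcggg
Mxd4, chr5:34187711-34187960, minus strand: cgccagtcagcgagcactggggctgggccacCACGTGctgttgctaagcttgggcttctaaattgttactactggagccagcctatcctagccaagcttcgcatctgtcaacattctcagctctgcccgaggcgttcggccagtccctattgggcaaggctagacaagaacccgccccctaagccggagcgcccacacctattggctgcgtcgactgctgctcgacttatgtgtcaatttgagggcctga
The E-box starts 123 bases before the start of Mnt and 219 bases before that of Mxd4. Over the 9 members in the table (Myc is not in it), 2 of 11 windows hold the motif, against 6.02% of all 32851 windows. CACGTG reads the same on both strands, and a match is a description of the letters only.

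Each library held 72902118 to 79258116 gene counts. CPM is a gene's count scaled to 1000000 counts of its library. Changes are log2 ratios, mutant over WT, ± SE from edgeR's quasi-likelihood fit over 19573 genes. A gene is said to rise or fall where the p adjusted over all those genes is under 0.05, which took 5.08% of genes as higher and 6.9% as lower. The mutants varied more among themselves than the WT animals, with a biological coefficient of variation of 72.7% in mutants and 17.1% in WT. Summed CPM of 4 Y-linked genes was 0.0686 and 0.121 in mutants 1 and 2, against 227 in mutant 3 and 169 to 219 in WT, so the groups differ in sex as well as genotype. Marker genes were read beside the tissue label. The 8 B-cell markers summed to 40.2 to 93.8 CPM in mutants and 5253 to 5905 CPM in WT. The 8 splenic stroma markers summed to 99.8 to 288 CPM in mutants and 784 to 998 CPM in WT. All 8 B-cell and 6 of 8 stroma markers fell, beside 6.9% of all genes. In 1 stroma marker all mutants were above all WT animals, when 18% of all genes were so. These levels do not settle the label for the mutants. Fewer cells of a type and less RNA per cell cannot be told apart in such bulk libraries.

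All 10 members passed the filter on low counts, and 1 of them, Mxi1, rose. None of the 10 fell, 9 did not pass, and 4 had an unadjusted p under 0.05 in either direction, against 31.2% of all genes. In 1 member all mutants were above all WT animals, against 18% of all genes, and in 4 members (Mycl, Max, Mxd4 and Mnt) all mutants were below all WT animals, against 22.6%. In the other 5 (Myc, Mycn, Mxd1, Mxd3 and Mga) the groups overlapped.

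Other fits called few members as well. DESeq2, which gave no p for Mycn, called 2 of the other 9 higher (Myc and Mxi1) and 1 lower (Mycl). It called 7.86% of genes higher and 8.49% lower over 31079 genes, a wider base that keeps low-count genes outside edgeR's 19573. By limma-voom 1 member was called higher and 1 lower, when 4.99% and 9.96% of the 19573 genes were. With a variance for each group limma-voom called none (3.57% and 3.89% of all genes), and with sex as a covariate edgeR called 1 higher and 0 lower (4.69% and 4.97%). Without mutant 1 the members called were 1 higher and 2 lower (8.73% and 9.47% of all genes), without mutant 2 they were 2 higher and 2 lower (13.6% and 15.3%), and without mutant 3 they were 1 higher and 0 lower (4.28% and 6.17%). No member was called without WT 1, 2 or 3, when 0.0294%, 0.0195% and 0.0392% of all genes were called higher and 0.636%, 0.581% and 0.627% lower.

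**Figure D1:**
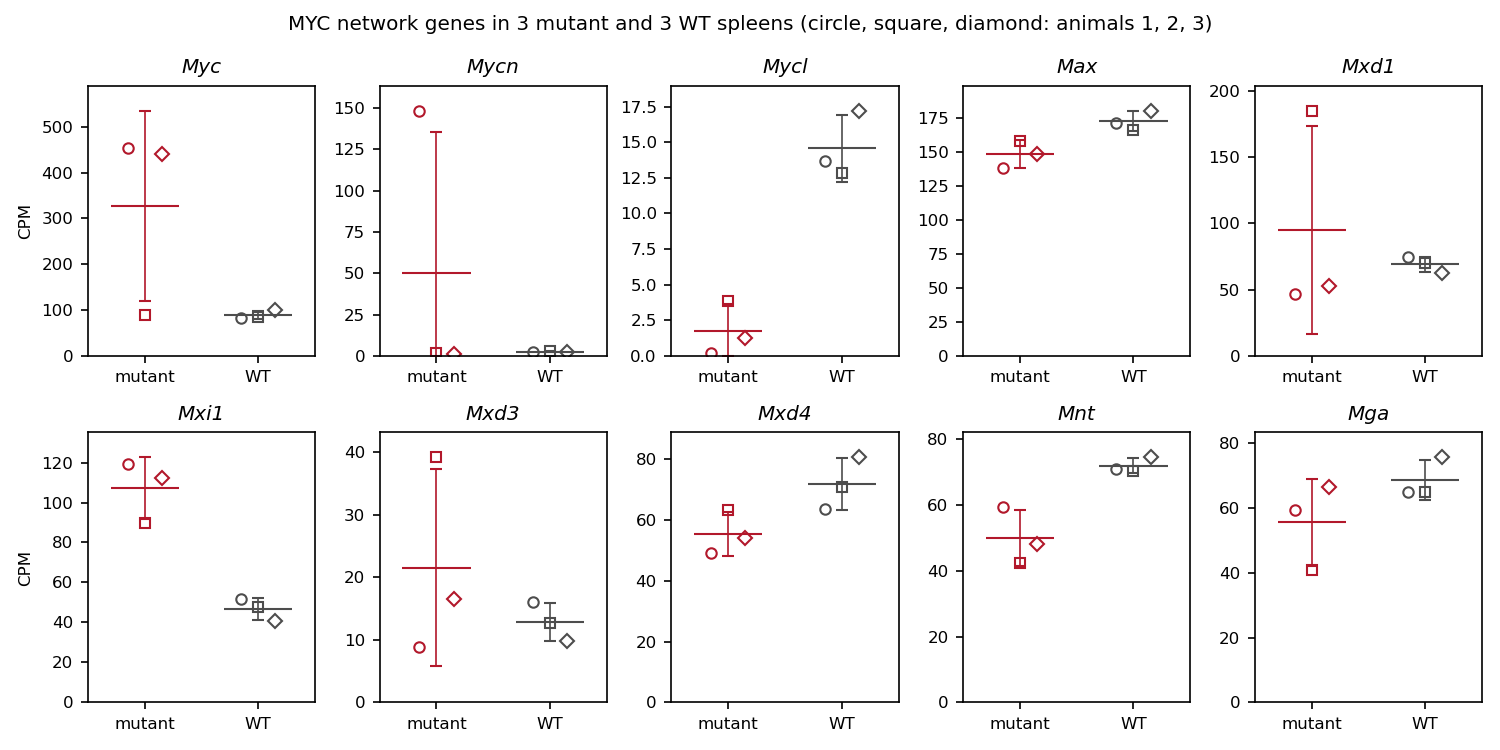
CPM of each network gene (vertical axes, linear and starting at 0) in 3 mutant and 3 WT spleens, with the mean as a horizontal line and the SD as an error bar, which the axis ends at 0 where it would go below. Myc stands at 454 and 441 CPM in mutants 1 and 3 and at 88.7 CPM in mutant 2, within the WT range of 83.8 to 99.1 CPM.

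Among the 3 MYC family activators, Myc was about 5 times the WT level in 2 of 3 mutants, Mycn was high in 1 mutant only, and Mycl was lower in every mutant. Myc (ENSMUSG00000022346, chromosome 15, 61985391 to 61990374), the broadly expressed member of the family, had 454, 88.7 and 441 CPM in mutants 1, 2 and 3, against 83.8, 85.5 and 99.1 CPM in the WT animals. Mutants 1 and 3 were 5.08 and 4.93 times the WT mean and mutant 2 was 0.991 times, inside the WT range. Across the groups Myc did not pass, with a log2 fold change of 1.86 ± 0.57 (adjusted p = 0.0854 by edgeR). Without mutant 2 it passed, at 2.29 ± 0.12 (adjusted p = 0.00117 by edgeR), and DESeq2 called it with all libraries (1.86 ± 0.61, adjusted p = 0.0158). Over 14 alternatives the adjusted p of Myc ran from 0.00117 to 0.253, and every one of them gave a positive fold change. The fit with sex as a covariate gave 2.26. Mutant 3 is the only mutant of the same sex as the WT animals, so this is the change of mutant 3 alone.

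Mycn (ENSMUSG00000037169, chromosome 12, 12936093 to 12941914), known from embryonic tissues and early progenitors, had 149, 1.72 and 0.86 CPM in mutants 1, 2 and 3, against 2.41, 2.71 and 2.30 CPM in WT. Mutant 1 held 60.1 times the WT mean, from 10832 counts, while mutants 2 and 3 lay below all WT animals at 0.697 and 0.348 times that mean. The fitted change of 4.33 ± 1.94 did not pass (adjusted p = 0.188 by edgeR) and rests on mutant 1: without it the value was -0.88 ± 0.45 (adjusted p = 0.222). With sex as a covariate, where the change is that of mutant 3 alone, it was -1.57.

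Mycl (ENSMUSG00000028654, chromosome 4, 122995652 to 123002485), a paralog that dendritic cells are known to use, had 0.192, 3.86 and 1.25 CPM in mutants 1, 2 and 3, against 13.7, 12.8 and 17.2 CPM in WT. The groups did not overlap: the mutants ranged from 0.0132 to 0.265 times the WT mean. The log2 fold change was -2.98 ± 1.01 and did not pass by edgeR (adjusted p = 0.108). It passed by DESeq2 (adjusted p = 0.00893) and limma-voom (-3.87 ± 0.89, adjusted p = 0.0358), and by edgeR without mutant 1 (-2.44, adjusted p = 0.049) or mutant 2 (-4.37, adjusted p = 0.0246). Over its 14 alternatives the adjusted p ran from 0.00893 to 0.279, and the fold change was negative in all of them. Dendritic cell markers were low in the same animals: 8 markers summed to 42.0, 121 and 34.2 CPM in mutants 1, 2 and 3 and to 227 to 260 CPM in WT. Of these 8 markers 2 fell, beside 6.9% of all genes, and none was at 0. Their part in the level of Mycl was not tested.

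**Figure D2:**
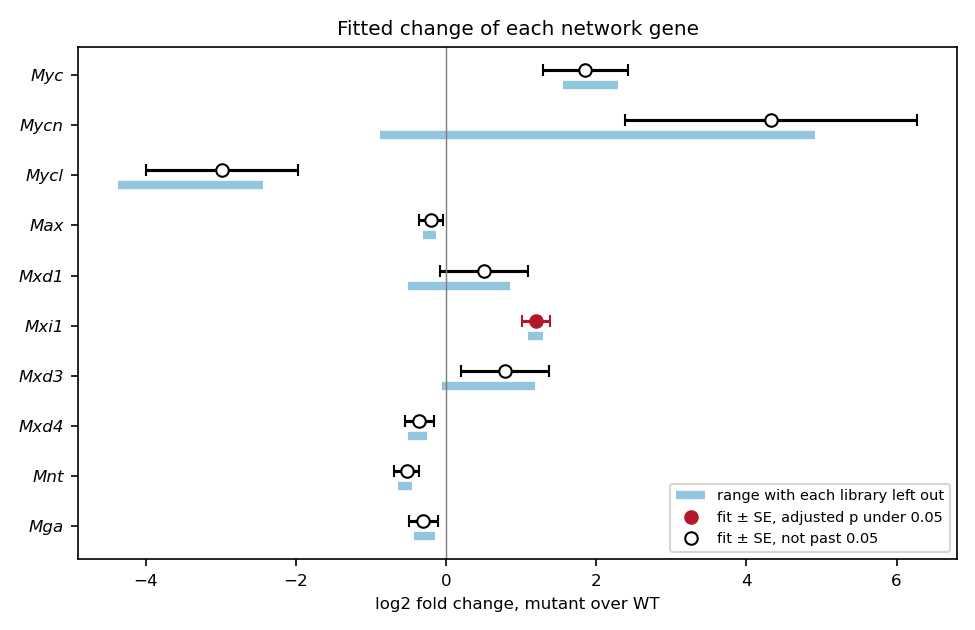
Fitted log2 fold change of each network gene, mutant over WT (horizontal axis), with its SE, and as a blue bar the range of the value when each of the 6 libraries is left out in turn. The bars of Mycn, Mxd1 and Mxd3 cross 0, and that of Mxi1 runs from 1.09 to 1.29.

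Max, the shared partner, differed little in size. Max (ENSMUSG00000059436, chromosome 12, 76937269 to 76962201) had 138, 159 and 149 CPM in mutants 1, 2 and 3, against 172, 167 and 181 CPM in WT. Every mutant was below every WT animal, at 0.799 to 0.916 times the WT mean, and the fitted log2 fold change of -0.21 ± 0.16 did not pass (adjusted p = 0.421 by edgeR).

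Among the 4 MXD repressors, Mxi1 rose in every mutant, Mxd1 and Mxd3 were high in mutant 2, and Mxd4 was slightly lower in all 3. Mxi1 (ENSMUSG00000025025, chromosome 19, 53310518 to 53375810), also called MXD2, a repressor whose promoter window is printed above, had 119, 89.7 and 112 CPM in mutants 1, 2 and 3, against 51.9, 47.6 and 40.8 CPM in WT. The lowest mutant was above the highest WT animal, and the means were 107 ± 15.5 CPM in mutants and 46.8 ± 5.58 CPM in WT (SD, n = 3 each). The log2 fold change was 1.20 ± 0.18, or 2.29-fold (adjusted p = 0.0159 by edgeR). Its log2 fold change was 1.09 to 1.29 over the fits without 1 library, but without WT 1, 2 or 3 it no longer passed (adjusted p = 0.0827, 0.098 and 0.0977 by edgeR), nor with a variance for each group by limma-voom (1.21 ± 0.31, adjusted p = 0.0606). Over its 14 alternatives the adjusted p ran from 3.51e-05 to 0.098. With sex as a covariate the change of Mxi1 was 1.21, which is that of mutant 3 alone against the WT animals. Gene counts do not separate transcripts from its 3 starts. Mxi1 shares 194 exon bases with a gene on the opposite strand, and without a stated strand setting reads there cannot be assigned.

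Mxd1 (ENSMUSG00000001156, chromosome 6, 86647042 to 86669161), known from maturing granulocytes, had 46.8, 185 and 52.8 CPM in mutants 1, 2 and 3, against 74.3, 70.1 and 62.7 CPM in WT. Mutant 2 was at 2.68 times the WT mean, and mutants 1 and 3 were below every WT animal. The fitted change of 0.51 ± 0.59 did not pass (adjusted p = 0.595 by edgeR) and turned to -0.51 ± 0.15 without mutant 2 (adjusted p = 0.0593). With sex as a covariate it was -0.44, the change of mutant 3 alone. Mutant 2 also had the highest sums of mature neutrophil markers (858, 1823 and 907 CPM in mutants 1, 2 and 3, against 212 to 287 CPM in WT) and of monocyte and macrophage markers (370, 4620 and 627 CPM, against 749 to 1008 CPM in WT). The median neutrophil marker differed from the WT mean by -2.13, 2.95 and 1.01 on the log2 scale in mutants 1, 2 and 3. In mutant 1 the neutrophil sum was thus above WT and the median marker below. For monocyte and macrophage markers the medians were -2.323, 2.425 and -0.37. Of 8 markers in each of these lists none was at 0 in any library, and 0 and 1 rose, beside 5.08% of all genes. The sum of 7 erythroid markers was highest in mutant 2 as well, at 771, 5959 and 1783 CPM in mutants 1, 2 and 3, against 1302 to 2316 CPM in WT. Their median gene was not: it differed from the WT mean by 0.23, 2.40 and 2.65 on the log2 scale, highest in mutant 3. Of the 7 erythroid markers 2 rose, beside 5.08% of all genes, and none was at 0. The part of these cell types in the level of Mxd1 was not tested.

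Mxd3 (ENSMUSG00000021485, chromosome 13, 55325168 to 55329823), known from dividing cells, had 8.94, 39.3 and 16.5 CPM in mutants 1, 2 and 3, against 16.04, 12.6 and 9.90 CPM in WT. The groups overlapped, with mutant 1 below and mutants 2 and 3 above all WT animals, and the change of 0.79 ± 0.59 did not pass (adjusted p = 0.407 by edgeR). Without mutant 2 it was -0.05 ± 0.38 (adjusted p = 0.928). Mxd3 shares 105 exon bases with Prelid1 on the opposite strand. Cell cycle markers were likewise highest in mutant 2: 10 of them summed to 2411, 4346 and 3053 CPM in mutants 1, 2 and 3, against 712 to 1146 CPM in WT. Of these 10 markers 8 rose, beside 5.08% of all genes, and none was at 0. Their part in the level of Mxd3, and that of the erythroid and myeloid markers given for Mxd1, was not tested.

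Mxd4 (ENSMUSG00000037235, chromosome 5, 34173883 to 34187720), known from resting and differentiated cells, had 49.0, 63.1 and 53.9 CPM in mutants 1, 2 and 3, against 63.6, 70.9 and 80.6 CPM in WT. The highest mutant lay just below the lowest WT animal, and the change of -0.35 ± 0.19 did not pass (adjusted p = 0.256 by edgeR). Without mutant 2 it passed, at -0.51 ± 0.14 (adjusted p = 0.0468), over a range of adjusted p from 0.0468 to 0.572 among the 14 alternatives. Mxd4 shares 514 exon bases with an antisense gene, so part of its reads is uncertain as well.

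Mnt and Mga, the large repressors of the network, were low or level in the mutants. Mnt (ENSMUSG00000000282, chromosome 11, 74830920 to 74845725), a broadly expressed antagonist of MYC, had 59.4, 42.4 and 48.1 CPM in mutants 1, 2 and 3, against 70.9, 70.4 and 74.6 CPM in WT. All 3 mutants were below the WT range, at 0.589 to 0.825 times the WT mean. The change of -0.52 ± 0.17 did not pass (adjusted p = 0.0931 by edgeR), and it passed without mutant 1 (-0.64 ± 0.12, adjusted p = 0.0279), over a range of 0.0279 to 0.296. Mga (ENSMUSG00000033943, chromosome 2, 119897228 to 119969581), which also holds a T-box DNA-binding domain, had 59.3, 40.7 and 66.6 CPM in mutants 1, 2 and 3, against 65.0, 65.0 and 75.7 CPM in WT. The groups overlapped through mutant 3, and the change of -0.30 ± 0.19 did not pass (adjusted p = 0.333 by edgeR).

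Levels of different members were compared per length, as CPM per kb of the exons annotated for a gene. In WT spleens Max was first with 48.1 ± 1.97 CPM per kb, followed by Myc (32.9 ± 3.10) and Mnt (15.5 ± 0.493), and the ranges of these 3 did not overlap each other or the next gene. Mxd1, Mxd4, Mxi1, Mxd3, Mga and Mycl followed between 9.76 and 3.61 CPM per kb, each with a range that overlapped its neighbour in the order, and Mycn was last at 0.75 CPM per kb. In mutants the order of the means was Myc, Max, Mxi1, Mycn, Mxd1, Mnt, Mxd3, Mxd4, Mga and Mycl, but the ranges separated neighbours in only 3 places, between Max and Mxi1, Mxd4 and Mga, and Mga and Mycl. Myc averaged 121 ± 76.3 CPM per kb there, with mutant 2 at 32.6, below its Max level of 44.1.

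**Figure D3:**
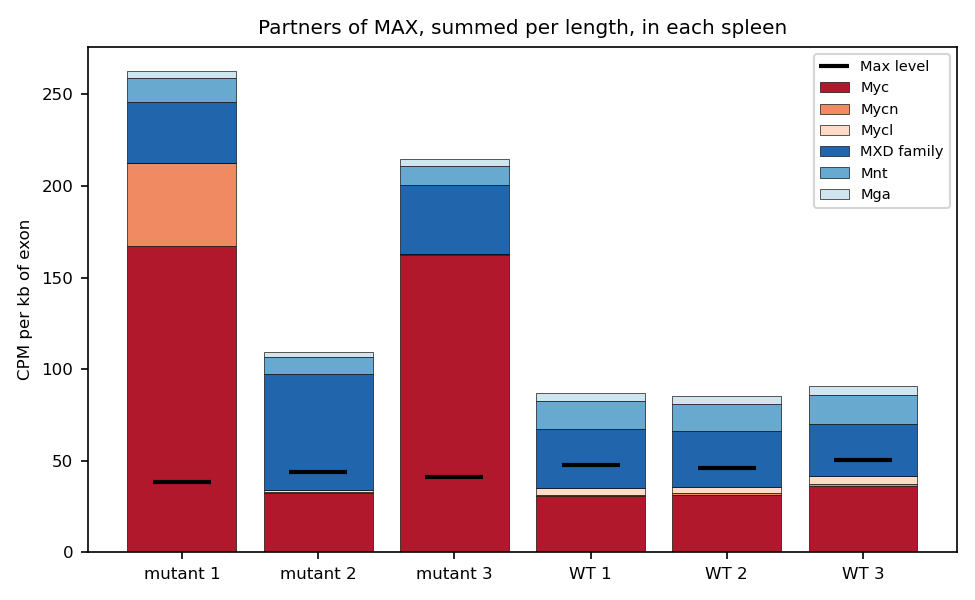
CPM per kb of exon (vertical axis, from 0) of the proteins' genes that compete for MAX, stacked in each mutant and WT spleen, with the level of Max as a black line. The MYC family reaches 212 and 163 CPM per kb in mutants 1 and 3, against 34.1 in mutant 2 and 34.96 to 41.5 in WT.

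The MYC family made up 80.8%, 31.2% and 75.8% of the summed CPM per kb of all MAX partners in mutants 1, 2 and 3, against 40.2%, 41.5% and 45.5% in WT. Mutants 1 and 3 were above and mutant 2 below the whole WT range. The means of 62.6 ± 27.3% in mutants and 42.4 ± 2.77% in WT (SD, n = 3 each) did not differ beyond the spread (exact 2-sided permutation p = 0.4, and 0.4 adjusted over 2 such shares), a design in which p cannot go below 0.1. Against the MXD family alone the share was 86.3%, 35.01% and 81.4% in mutants 1, 2 and 3 and 51.9% to 59.2% in WT (exact 2-sided permutation p = 0.4, adjusted 0.4). Set against Max, the summed MYC family level was 5.53, 0.774 and 3.94 times that of Max in mutants 1, 2 and 3, against 0.732, 0.766 and 0.825 times in WT. In mutant 1 Mycn contributed 21.2% of the family's summed level, against 1.53% and 0.16% in mutants 2 and 3 and 1.68% to 2.32% in WT. Mycl contributed 0.0224%, 2.80% and 0.19% in mutants 1, 2 and 3, against 8.94% to 10.3% in WT. The MXD family summed to 33.7, 63.3 and 37.3 CPM per kb in mutants 1, 2 and 3, against 28.5 to 32.4 CPM per kb in WT. Its highest level was in mutant 2, the mutant with the least Myc.

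Of the genes that work with the network, those called on 4 lists are given beside 5.08% of all genes called higher and 6.9% called lower. In the MLX arm, a parallel network of sugar-sensing factors, 1 of 3 genes rose: Mlxipl, which encodes ChREBP, was at 1.15, 1.77 and 1.52 CPM in mutants 1, 2 and 3, against 0.0677, 0.077 and 0.328 CPM in WT (log2 3.26 ± 0.73, adjusted p = 0.0401 by edgeR). Of 12 MYC cofactors 1 fell: Bptf, a subunit of a chromatin remodeller, at 80.8, 72.5 and 96.8 CPM in mutants 1, 2 and 3, against 123, 135 and 163 CPM in WT (log2 -0.74 ± 0.17, adjusted p = 0.0421). Of 10 SIN3 and NCOR corepressor genes 1 rose, the SIN3 subunit gene Sap30 (log2 1.52 ± 0.26, adjusted p = 0.0208). Of 11 partners of MGA in its Polycomb complex 1 rose, Tfdp1, which encodes a partner of E2F factors, at 176, 146 and 210 CPM in mutants 1, 2 and 3, against 49.9, 47.3 and 43.6 CPM in WT (log2 1.92 ± 0.18, adjusted p = 0.00492). The median log2 fold changes of these lists were -0.06, 0.20, 0.33 and 0.33 in that order, beside 0.10 over all genes tested.

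Of 14 genes that regulate MYC protein turnover, 4 rose and 1 fell, beside 5.08% of all genes higher and 6.9% lower. The median log2 fold change was 0.16. Pim1, a kinase that phosphorylates MYC, had 241, 301 and 241 CPM in mutants 1, 2 and 3, against 100.5, 100.9 and 85.8 CPM in WT (log2 1.46 ± 0.21, adjusted p = 0.0138 by edgeR). Cip2a, which shields MYC from a phosphatase, rose by 1.78 ± 0.28 on the log2 scale (adjusted p = 0.0166). Usp28, a deubiquitinase that opposes MYC degradation, had 15.4, 12.4 and 12.3 CPM in mutants 1, 2 and 3, against 27.97, 27.9 and 29.6 CPM in WT (log2 -1.08 ± 0.19, adjusted p = 0.0229). Among 13 regulators of Myc transcription 2 fell and none rose, beside the same 6.9% and 5.08% of all genes. Lef1 and Tcf7, transcription factors of the Wnt pathway, changed by -6.12 ± 0.38 and -4.61 ± 0.46 (adjusted p = 0.00153 and 0.00665). Both are also markers of T cells, whose 8 markers summed to 17.1, 270 and 16.9 CPM in mutants 1, 2 and 3 and to 632 to 801 CPM in WT, and the part of T cells in these falls was not tested.

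Genes known as MYC targets were described as 3 lists, for ribosome biogenesis, metabolism and the cell cycle. These lists were chosen with earlier results of these data known, so their counts are a description and not a test. The share that rose was 6.9%, 26.7% and 42.9% in that order. Of 73 tested genes on 3 target lists, 16 rose and none fell, or 21.9% against 5.08% of all genes. The median log2 fold change was 0.82 against 0.10. In 41 of the 73 all mutants were above all WT animals, or 56.2% against 18% of all genes. Without WT 1, 2 or 3 none was called higher, and without mutant 2 the count was 47, beside the shares of all genes given above.

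Among ribosome biogenesis genes 2 of 29 rose, or 6.9%, near the 5.08% of all genes. Gnl3, which encodes the nucleolar GTPase nucleostemin, had 158, 72.4 and 141 CPM in mutants 1, 2 and 3, against 45.9, 52.5 and 48.2 CPM in WT (log2 1.34 ± 0.28, adjusted p = 0.0349 by edgeR). Mrto4, a ribosome assembly factor, had 73.6, 48.0 and 74.3 CPM in mutants 1, 2 and 3, against 37.9, 37.7 and 35.6 CPM in WT (log2 0.81 ± 0.20, adjusted p = 0.0473). In both genes mutants 1 and 3 were higher than mutant 2. The same held for the whole list, whose summed level was 6912, 2929 and 5861 CPM in mutants 1, 2 and 3, against 2976 to 2996 CPM in WT. Against the WT mean, its median gene differed by 0.97, 0.08 and 0.81 on the log2 scale in mutants 1, 2 and 3, beside medians of -0.05, -0.02 and -0.02 over all genes. Without mutant 2, 22 of its 29 genes rose, when 13.6% of all genes did. Without mutant 3 none passed, when 4.28% of all genes were called higher and 6.17% lower.

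Of 30 metabolic targets 8 rose (26.7%, against 5.08% of all genes), with a median log2 fold change of 0.99. Their sums were 6549, 5692 and 7430 CPM in mutants 1, 2 and 3, against 3345 to 3578 CPM in WT. Paics, a purine synthesis enzyme, had 304, 171 and 271 CPM in mutants 1, 2 and 3, against 97.0, 90.5 and 94.2 CPM in WT (log2 1.40 ± 0.22, adjusted p = 0.0179 by edgeR). Mthfd1, a folate enzyme, had 105, 108 and 160.5 CPM, against 56.5, 56.7 and 54.1 CPM in WT (log2 1.16 ± 0.20, adjusted p = 0.0211). Of 14 cell cycle targets 6 rose, with a median of 0.83, among them the helicase subunit gene Mcm5 (log2 1.46 ± 0.19, adjusted p = 0.0119) and the phosphatase gene Cdc25a (log2 1.34 ± 0.18, adjusted p = 0.0127). Their median gene differed from the WT mean by 0.84, 1.21 and 0.57 in mutants 1, 2 and 3, highest in the mutant with WT-like Myc. DESeq2 called 15 of 30 metabolic and 6 of 30 ribosome biogenesis targets higher, when 7.86% of its wider base of 31079 genes were. That base keeps low-count genes, so its share is not a like measure for these lists.

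**Figure D4:**
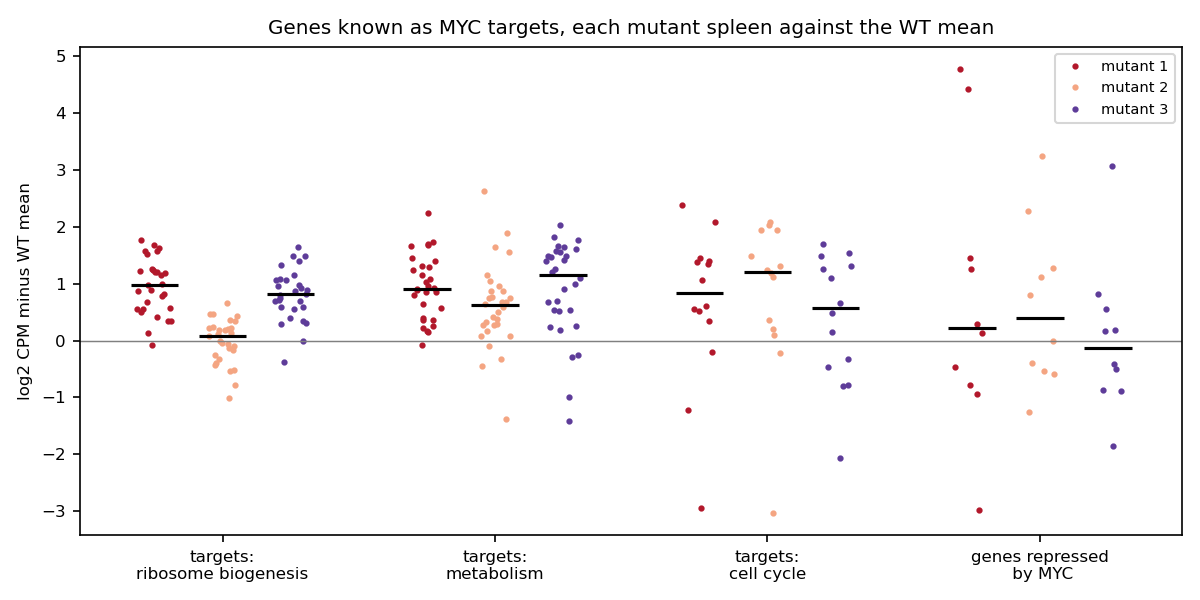
Difference of log2 CPM from the WT mean (vertical axis) for each tested gene of 4 lists, in mutants 1, 2 and 3, with the median of each as a black line. The ribosome biogenesis targets have medians of 0.97 and 0.81 in mutants 1 and 3 and of 0.08 in mutant 2.

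Of 10 genes that MYC is known to repress, 1 rose and none fell, beside 5.08% and 6.9% of all genes. Their median log2 fold change was 0.43. The gene that rose was Cdkn1a, which encodes the cell cycle inhibitor p21, with 149, 60.2 and 59.5 CPM in mutants 1, 2 and 3, against 6.09, 7.15 and 7.20 CPM in WT (log2 3.72 ± 0.43, adjusted p = 0.00902 by edgeR). It was above all WT animals in every mutant, including both with high Myc.

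Cell type markers also differed between the mutants. The 7 stem and progenitor markers summed to 1227, 97.9 and 397 CPM in mutants 1, 2 and 3, against 116 to 117 CPM in WT. Myc was lowest in mutant 2 as well, but nearly level between mutants 1 and 3 (454 and 441 CPM), where the marker sums were far apart. None of the 7 rose and 1 fell, beside 5.08% and 6.9% of all genes, and none was at 0. The gene that fell was Mecom, a transcription factor of stem cells, with 0.741, 0.847 and 1.33 CPM in mutants 1, 2 and 3, against 2.96, 3.17 and 3.68 CPM in WT (adjusted p = 0.0378 by edgeR). Gata2, a factor of progenitors and mast cells, had 399, 17.96 and 125 CPM in mutants 1, 2 and 3, against 12.6 to 14.6 CPM in WT, and was the only marker of the 7 above all WT animals in every mutant. Myb, a transcription factor of progenitors, had 273, 31.1 and 139 CPM in mutants 1, 2 and 3, against 35.6 to 41.1 CPM in WT, and Meis1, a factor of stem cells, had 259, 9.16 and 2.20 CPM, against 8.89 to 11.8 CPM in WT. The stem cell factor receptor gene Kit had 127, 29.2 and 108 CPM in mutants 1, 2 and 3, against 34.2 to 42.4 CPM in WT, and Cd34, a surface marker of progenitors, had 168, 8.50 and 20.5 CPM, against 10.1 to 12.996 CPM in WT. Hoxa9, a homeobox factor of progenitors, was lowest in mutant 1, with 0.0823, 1.20 and 1.003 CPM, against 0.303 to 0.501 CPM in WT. Meis1 was high in mutant 1 alone, as Mycn was. The summed level of 4 mast cell and basophil markers was also high in mutant 1 alone, at 175, 3.23 and 1.003 CPM in mutants 1, 2 and 3, against 2.41 to 4.60 CPM in WT. Of that sum Fcer1a, a subunit of the IgE receptor, made up 169 CPM in mutant 1, and none of the 4 rose or fell. The 6 megakaryocyte markers summed to 3017, 971 and 4548 CPM in mutants 1, 2 and 3, against 297 to 564 CPM in WT. Of these 6, 3 rose, beside 5.08% of all genes. The 5 early granulocyte markers summed to 577, 343 and 389 CPM, against 23.3 to 54.2 CPM in WT. Of these 5, 4 rose, beside the same 5.08%. None of these markers was at 0, and their part in the levels of Myc and Mycn was not tested.

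**Figure D5:**
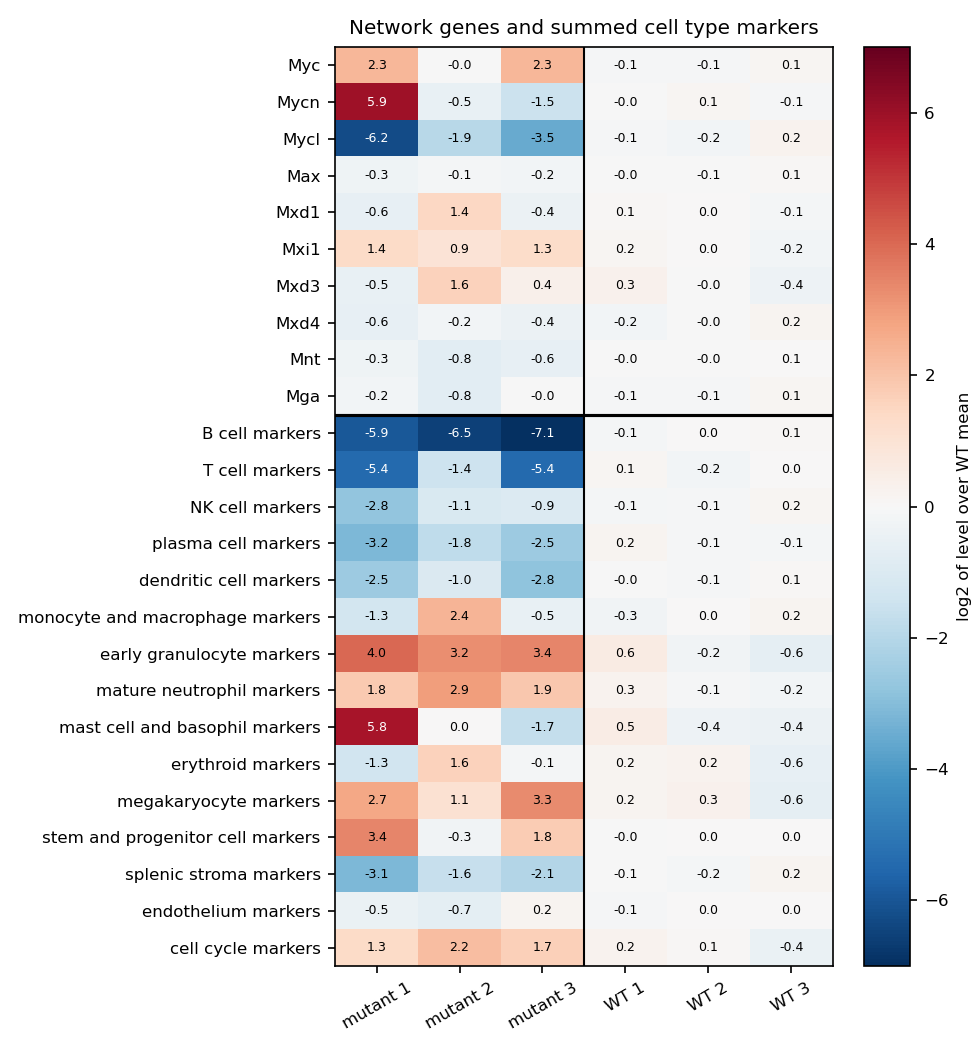
Log2 of each level over the WT mean (colour and printed value) for the 10 network genes and for the summed CPM of 15 cell type marker lists, in 3 mutant and 3 WT spleens. Myc and the stem and progenitor markers are high in mutants 1 and 3, and B cell markers are low in all 3 mutants.

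The genes most like Myc over the 6 libraries, by Pearson correlation of log2 CPM among 10851 genes, were Nab1 (r = 0.999), Ttll4 (r = 0.998) and Sf3a3 (r = 0.998). Nab1, a corepressor of EGR factors, had 107, 56.2 and 107 CPM in mutants 1, 2 and 3, against 55.2, 55.2 and 61.9 CPM in WT, so it shared the pattern of Myc at a smaller fold. For Mxi1 the closest were Tmub2 (r = 0.999), Wdhd1 (r = 0.998) and Hpf1 (r = 0.998). Tmub2 shared the pattern at a far smaller fold, with 70.5, 63.5 and 71.5 CPM in mutants 1, 2 and 3, against 61.8, 61.5 and 62.9 CPM in WT. Wdhd1, a DNA replication factor, had 99.2, 67.2 and 80.1 CPM in mutants 1, 2 and 3, against 26.3, 24.5 and 19.1 CPM in WT. The libraries behind these correlations share the genotype, sex and cell type differences given above.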

How the data were processed

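The authors deposited whole-number counts per Ensembl gene, without normalization, for 3 mutant and 3 WT spleens. The libraries were poly-A selected and stranded, with 50 ng of RNA as input, per the labels' protocols. STAR 2.5.3a, limma, mm10 and GRCm38 are named, per the submitters' processing notes. No source used here gives the annotation, strand setting or treatment of shared reads, which bears on genes that overlap Mxi1, Mxd3 and Mxd4.

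Of 31771 identifiers 31669 matched a symbol. Coordinates and exon lengths are from GENCODE M21 on GRCm38. Each of the 6 columns matched 1 sample title. Samples were grouped by genotype. Replicates were numbered by accession, so their numbers pair no samples. Each library is from a separate animal, per the series' design text.

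The test was edgeR 4.0.16 in R 4.3.3 (TMM factors, filter by expression, robust quasi-likelihood fit, Benjamini-Hochberg adjustment over 19573 genes, threshold 0.05). It was also run on simulated counts with the same dispersion in both groups. The real groups differ in variation, so that run cannot show how the test behaves here. CPM used library totals. Per-mutant differences used TMM-scaled log2 CPM (prior count 2). The SE is the log2 fold change divided by the root of F. Shares were compared by exact permutation in SciPy 1.17.1. Alternatives were other scalings, DESeq2 1.42.0, limma-voom 3.58.1, filters, a sex covariate and each library left out.

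The members and the gene lists were chosen with earlier results of these data known. Named genes are the 10 members, the 2 genes with the smallest p in each direction from each other list (or its most abundant gene where none passes), and the 3 genes closest to Myc and to each member past the threshold, among genes with a mean log2 CPM of at least 2. Fcer1a, Prelid1 and the 7 stem and progenitor markers were named after their values were seen.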

Additional observations from a re-analysis of the deposited data

How the results depend on the processing

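No paired analysis was possible because the labels give no replicate numbers shared between the groups. Upper-quartile scaling moved the median log2 fold change of all genes from 0.10 to 0.00, and no member changed direction under another scaling. Genes called higher and lower numbered 995 and 1351 by edgeR and 2444 and 2640 by DESeq2, and 762 were called lower with a variance for each group by limma-voom. Leaving out each library gave 4 to 2794 higher and 119 to 3137 lower. Members called higher numbered 2 by DESeq2 and 0 with a variance for each group, and 0 to 2 with a library left out. Members called lower numbered 1 by DESeq2 and 1 by limma-voom, and 0 to 2 with a library left out.

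The direction turned in 5 of 139 member values, which leave out Mycn by DESeq2, where the tool gave no p (log2 fold change 4.34 ± 1.44). Mycn was at -1.57 with the sex covariate and at -0.88 to 4.91 with each library left out (-0.88 without mutant 1), Mxd1 at -0.44 with the sex covariate and at -0.51 to 0.86 with each library left out (-0.51 without mutant 2), and Mxd3 at -0.054 to 1.18 (-0.054 without mutant 2). The cause was not tested. Of the other values, 4 lost and 8 gained a call and 122 kept direction and side of the threshold.

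The MYC share of the network was 20.2 percentage points higher in mutants than in WT and 11.1 to 35.9 with each library left out. Against the MXD family alone it was 12.6 points higher, and 3.25 to 28.9 with each library left out. By coding length, an alternative added after the data were seen, the differences were 19.9 and 19.4 points. A protein table was not used here, so the planned length alternative from it was not run. Counts of 14 for Mycl in mutant 1 limit its fold there. With 3 animals a group and mutants that vary widely, changes of the size seen in Mnt or Max are not resolved here.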

Other observations

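The E-box CACGTG was also counted in the RefSeq promoter windows of the target lists and of some other lists, as a description of sequence. It was in 7 of 34 windows of metabolic targets, 3 of 25 of ribosome biogenesis targets and 2 of 14 of cell cycle targets, against 6.02% of all windows. Lists that are not targets held it at similar shares: 2 of 14 windows (14.3%) of MYC cofactors and 2 of 16 (12.5%) of MYC protein turnover regulators. None of the 12 windows of the genes repressed by MYC held it. Over the 3 target lists 11 of 62 genes had it in at least 1 window, against 6.86% of all 27025 genes.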
